A study of Mus musculus with 9 samples.

Results

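The Foxo family of forkhead transcription factors was followed through 3 genes, Foxo1, Foxo3 and Foxo4, chosen by gene symbol from 22977 genes with a single entry and an estimate in every library. Foxo proteins bind DNA and switch on genes of quiescence, stress resistance and trafficking while growth signals are low. When phosphoinositide 3-kinase (PI3K) is active, the kinase Akt phosphorylates them, 14-3-3 proteins hold them, and the exportin Xpo1 carries them out of the nucleus. The germinal center has a dark zone (DZ) of rapid division and antibody gene mutation and a light zone (LZ) in which B cells compete for antigen and T cell help, and Foxo1 is known as a factor that the dark zone program needs. The paralogs Foxo3 and Foxo4 recognise the same DNA core, and the data give their RNA in cells that had lost Foxo1.

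RNA was sequenced in 9 libraries of splenic germinal center B cells, 3 from each of 3 groups of mouse cells. The Foxo1-deficient cells were CD45.1/2 and Foxo1(f/f), and the wild-type LZ and DZ cells were CD45.1/1 and Foxo1(+/+). Both genotypes carried the tamoxifen-inducible Cre as ERT2cre(KI/+) and the antigen receptor knock-in B1-8hi as B1-8hi(KI/+). B cells of both genotypes were transferred as equal parts of a mixture into C57BL/6 hosts, which were immunized with NP-CGG in alum, given tamoxifen by mouth on days 7 to 9 and used for sorting on day 12. The wild-type cells were divided by CD86 and CXCR4 into LZ and DZ, whereas the Foxo1-deficient cells were taken with no zone gate. A difference between the Foxo1-deficient group and either zone therefore holds genotype and gate together, and the 2 cannot be told apart. The labels name a CD45.2-negative gate for cells whose genotype is given as CD45.1/2, and do not say whether the replicates came from separate mice, and the spread behind each p-value may thus be technical.

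As a check of cell type, 14 of 14 germinal center B cell markers stood above 1 FPKM (fragments scaled by transcript length and library size) in all 9 libraries. Their levels were not all alike: in limma 2 of the 14 fell and 2 rose in Foxo1-deficient cells against DZ, and 1 fell against LZ. Over all 10004 tested genes, 0.75% fell and 2.1% rose against DZ, and 0.87% fell against LZ, so the markers were called more often. Neutrophil and macrophage markers, of which 19 of 20 had an entry, summed to 164, 241 and 337 FPKM in Foxo1-deficient replicates 1, 2 and 3, against 0.934 to 1.48 FPKM in LZ and 0.389 to 5.27 FPKM in DZ. In wild-type cells S100a8 and Tyrobp were at 0 in all 6 libraries, while Elane, Mpo, Cd14, C1qb and Cebpe were at 0 in each Foxo1-deficient library. Erythroid and platelet markers, 10 of 12 with an entry, summed to 80.9 to 223 FPKM in Foxo1-deficient cells, 16.1 to 25.3 FPKM in LZ and 8.72 to 12.0 FPKM in DZ. Pf4, Ppbp and Gp9 were at 0 in the Foxo1-deficient libraries. T cell markers summed to 1.91 to 3.94 FPKM, against 1.51 to 3.50 FPKM in LZ and 0.800 to 4.23 FPKM in DZ, with Cd3e, Cd3g and Cd4 at 0 in all 9 libraries. The part of these other cells in the results below was not tested. Total read numbers are not in the tables. Between 11229 and 12495 genes were above 0 in a library, and of 9088 well covered genes Foxo1-deficient replicate 3 listed 240 at 0, against 11 to 74 in the others.

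On the mm9 build of the deposited tables, Foxo1 spans chr3:52072259-52154031, Foxo3 chr10:41905592-41996548, Foxo4 chrX:98449867-98456212 and the fourth paralog Foxo6 chr4:119939683-119959866. No other gene entry overlaps these 4 spans, and the values are sums over each gene, with no value per exon or transcript. RefSeq promoter windows (build GRCm38.p6) matched 2 of the 3 members, Foxo1 and Foxo3; Foxo4 is named only. The 250 bases before each transcript start are shown for these 2 paralogs, which differed widely in level in wild-type cells. Whether the windows bear on that difference was not tested. Capitals mark the CCAAT box in either orientation (CCAAT or ATTGG).

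Foxo1, chr3:52268087-52268336, plus strand: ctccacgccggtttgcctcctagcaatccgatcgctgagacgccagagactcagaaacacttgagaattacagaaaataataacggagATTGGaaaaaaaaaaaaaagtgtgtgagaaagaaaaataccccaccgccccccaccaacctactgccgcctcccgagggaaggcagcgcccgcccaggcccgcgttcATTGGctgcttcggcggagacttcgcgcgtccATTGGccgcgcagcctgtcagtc

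Foxo3, chr10:42276696-42276945, minus strand: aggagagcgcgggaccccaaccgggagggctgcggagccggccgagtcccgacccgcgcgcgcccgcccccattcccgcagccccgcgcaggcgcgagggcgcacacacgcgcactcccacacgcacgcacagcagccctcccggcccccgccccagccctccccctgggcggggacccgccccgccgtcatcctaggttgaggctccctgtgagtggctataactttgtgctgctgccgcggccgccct

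The Foxo1 window holds 3 CCAAT boxes and the Foxo3 window holds 0, where 33.8% of 32851 mouse windows of the same length hold at least 1. GC boxes (GGGCGG or CCGCCC; 32.7% of windows) numbered 2 for Foxo1 and 5 for Foxo3, none of them overlapping a CCAAT box. The Foxo3 window is 76.4% G or C and the Foxo1 window 56.0%. The core that Foxo proteins themselves bind (GTAAACA or TGTTTAC; 3.17% of windows) is in neither. These letters describe the windows only, and no binding or methylation was measured.

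Foxo1, the targeted gene, was lower in all 3 Foxo1-deficient libraries than in any wild-type library, and RNA assigned to it was still present in each. Its level was 3.01, 1.79 and 0.808 FPKM in Foxo1-deficient replicates 1, 2 and 3, against 14.8, 18.7 and 22.1 FPKM in LZ and 24.5, 19.5 and 19.1 FPKM in DZ. The groups do not overlap: the lowest wild-type library stood 4.90-fold above the highest Foxo1-deficient one. Mean levels were 1.87 ± 1.11 FPKM in Foxo1-deficient cells, 18.5 ± 3.69 FPKM in LZ and 21.0 ± 2.99 FPKM in DZ (SD, n = 3 each).

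On the log2(FPKM + 1) scale, which understates changes of low values, Foxo1 fell by 2.82 against LZ (SE 0.30, adjusted p = 0.00113) and by 3.01 against DZ (SE 0.30, adjusted p = 0.000542) in limma. Against the midpoint of the 2 zones it fell by 2.92 (SE 0.26, adjusted p = 0.000257), and the 3 comparisons share libraries. Foxo1 was the only one of the 3 members called in them, at an adjusted p under 0.05. Of 10004 genes tested, 1.56% were called against LZ (0.69% higher, 0.87% lower), 2.85% against DZ (2.1% higher, 0.75% lower) and 2.06% against the midpoint (1.26% higher, 0.8% lower). With median centring the calls against DZ were 181 higher and 225 lower, and those against the midpoint 137 and 177. By size, the fall of Foxo1 stood at place 12 against LZ, 5 against DZ and 7 against the midpoint. In an exact two-sided permutation test on FPKM, 3 Foxo1-deficient against 6 wild-type libraries gave p = 0.0238, the smallest that 84 arrangements allow.

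The residual Foxo1 differed among the Foxo1-deficient libraries. It came to 15.2%, 9.03% and 4.08% of the wild-type mean in replicates 1, 2 and 3, a mean of 9.45% ± 5.59 (SD, n = 3). The Cufflinks 95% bounds of these 3 FPKM values, on the same scale, were 12.5% to 18.0%, 6.94% to 11.2% and 2.46% to 5.57%. These bounds cover counting error within a library only; they do not overlap among the 3 libraries, and those of LZ replicates 1 and 2 (13.2 to 16.3 and 16.9 to 20.4 FPKM) do not overlap either. Replicate 1 was highest and replicate 3 lowest. The highest Foxo1-deficient library was 3.73-fold the lowest, against 1.66-fold over the 6 wild-type libraries. The neutrophil and macrophage markers stood in the opposite order, lowest in replicate 1 and highest in replicate 3, and replicate 3 also listed the most covered genes at 0; whether either bears on the residual level was not tested. A few cells that kept full Foxo1 and a low level in all cells cannot be told apart in bulk RNA. Which part of Foxo1 the floxed allele loses is not stated in the labels or tables.

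**Figure D1:**
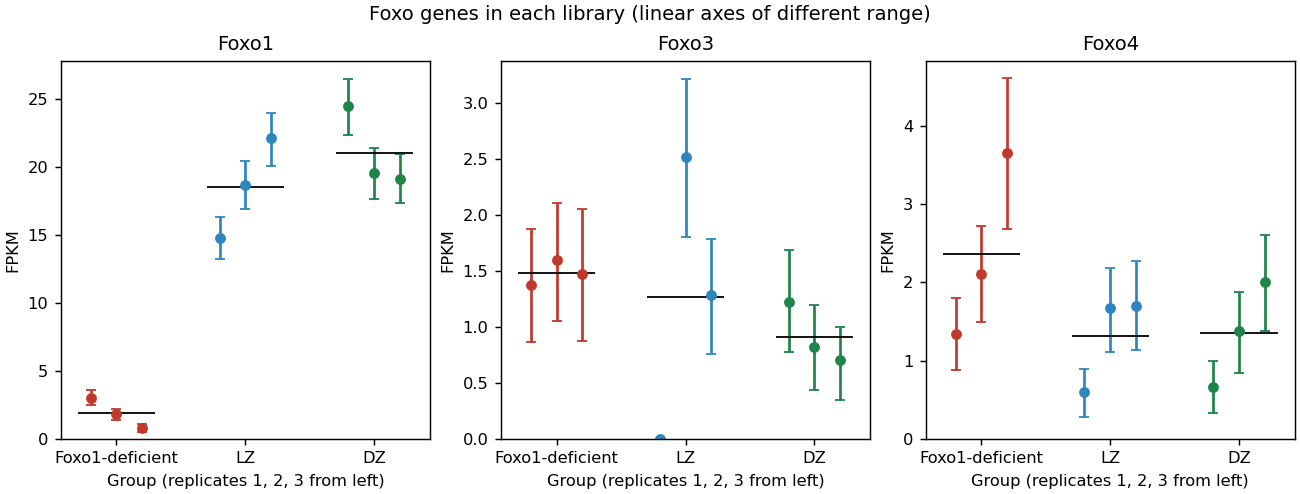
FPKM of Foxo1, Foxo3 and Foxo4 (linear axes, each panel with its own range) in the Foxo1-deficient, LZ and DZ libraries; points are libraries with their Cufflinks 95% bounds and black lines are group means (n = 3 each). Foxo1 stays at or below 3.01 FPKM in Foxo1-deficient cells, against 14.8 FPKM or more in wild-type cells, while the groups overlap for Foxo4 and, through LZ, for Foxo3.

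Within wild-type cells Foxo1 did not differ detectably between the zones. The DZ mean was the higher by 0.18 on the log2 scale (95% interval -0.47 to 0.84, adjusted p = 0.842 in limma), and 2 of the 3 DZ libraries lay inside the LZ range. Foxo1 RNA ranked above 87.6% to 92.3% of all genes in the 6 wild-type libraries, and above 58.0% to 66.6% in the Foxo1-deficient libraries. The order of the means was DZ, LZ, Foxo1-deficient, with the first 2 not separated beyond their spread. For Foxo3 and Foxo4 the DZ minus LZ differences were -0.07 (95% interval -1.02 to 0.87) and 0.02 (95% interval -0.83 to 0.86). None of the 3 members was called between the zones by limma, where 1.94% of tested genes were (0.56% higher, 1.38% lower; with median centring 133 genes were higher and 101 lower). Among them 0 also passed an unadjusted p under 0.05, against 15.4% of all tested genes, and 0 were called by voom on fragment numbers implied by the Cufflinks bounds.

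Foxo3, a paralog linked in mouse to lymphocyte and ovarian follicle quiescence, was low in every group. Its level was 1.38, 1.60 and 1.47 FPKM in Foxo1-deficient cells, against 0, 2.52 and 1.28 FPKM in LZ and 1.23, 0.816 and 0.700 FPKM in DZ. All 3 Foxo1-deficient libraries were above all 3 DZ libraries and inside the LZ range. Genes with an estimate flagged as failed were left out, so the listed 0 of LZ replicate 1 carried no such flag. In that library 64 of 9088 well covered genes, Foxo3 among them, are listed at 0, and the cause of these values was not tested.

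The Foxo3 difference on the log2(FPKM + 1) scale was 0.31 against LZ (95% interval -0.64 to 1.26, adjusted p = 0.809) and 0.38 against DZ (-0.56 to 1.33, adjusted p = 0.710) in limma. Without LZ replicate 1 the difference against LZ was -0.19. In the exact permutation test p was 0.476 against all wild-type libraries and 0.7 against LZ. Against DZ alone it was 0.1, the smallest that 3 against 3 allows. The intervals include no difference and also a doubling on this scale, so a moderate change was not detectable here. About 18.5 to 50.7 fragments, as implied by the Cufflinks bounds, lie behind each nonzero Foxo3 value, which is a counting error of 14.0% to 23.2%. The order of the means was Foxo1-deficient, LZ, DZ, with no neighbours separated by the limma test.

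Foxo4, the X-linked paralog, was 1.34, 2.11 and 3.65 FPKM in Foxo1-deficient cells, against 0.602, 1.67 and 1.69 FPKM in LZ and 0.667, 1.38 and 2.00 FPKM in DZ. Foxo1-deficient replicates 2 and 3 were above every wild-type library, and replicate 1 was inside the wild-type range. Means were 2.37 ± 1.18 FPKM in Foxo1-deficient cells, 1.32 ± 0.622 FPKM in LZ and 1.35 ± 0.668 FPKM in DZ (SD, n = 3 each).

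The Foxo4 difference was 0.52 against LZ (95% interval -0.32 to 1.36, adjusted p = 0.604) and 0.50 against DZ (-0.34 to 1.35, adjusted p = 0.565) in limma, and 0.51 against the midpoint (-0.22 to 1.24, adjusted p = 0.505). Without Foxo1-deficient replicate 3, the library with the highest Foxo4, the most neutrophil and macrophage marker RNA and the least Foxo1, these came to 0.26, 0.24 and 0.25. The exact permutation test of Foxo1-deficient against all wild-type libraries gave p = 0.167. The Foxo4 order of means was Foxo1-deficient, DZ, LZ, with no neighbours separated.

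The median change of all tested genes was 0.12 against DZ and -0.02 against LZ, and quantile normalization set the first to 0.00050. Relative to that, the changes against DZ were -3.08 for Foxo1, 0.21 for Foxo3 and 0.31 for Foxo4. Foxo1 alone passed the test under this scaling as well.

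**Figure D2:**
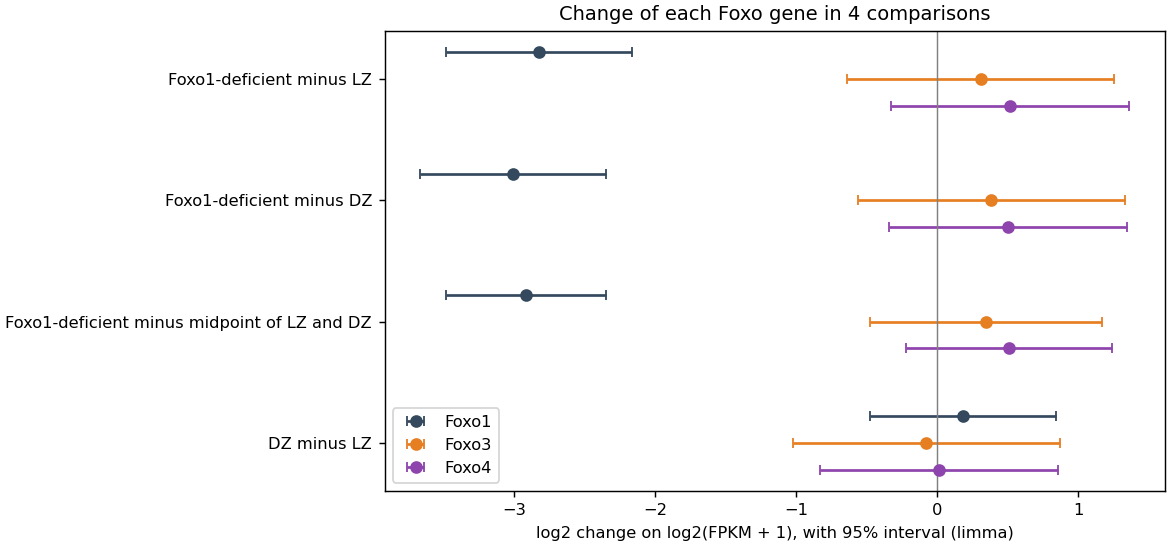
Change of Foxo1, Foxo3 and Foxo4 on the log2(FPKM + 1) scale in 4 comparisons; points are limma estimates from 9 libraries and bars their 95% intervals, with 0 marked by a grey line. Foxo1 lies between -2.82 and -3.01 in the 3 comparisons of Foxo1-deficient cells, and every interval of Foxo3 and Foxo4 includes 0.

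Foxo6, the fourth paralog, was listed at 0 in all 3 Foxo1-deficient libraries, at 0, 0 and 0.0673 FPKM in LZ and at 0, 0.269 and 0 FPKM in DZ. It did not enter the test.

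Since FPKM is per length, the 3 members can be set against one another. Foxo1 made up 52.6%, 32.5% and 13.6% of the summed FPKM of the 3 genes in Foxo1-deficient replicates 1, 2 and 3, against 96.1%, 81.7% and 88.2% in LZ and 92.8%, 89.9% and 87.6% in DZ. Foxo1 was thus the most abundant member in all 6 wild-type libraries and in Foxo1-deficient replicate 1. Foxo4 had the highest value in Foxo1-deficient replicates 2 and 3. In replicate 2 the Cufflinks bounds of the 3 members overlap, so their order there lies within counting error. They were 1.49 to 2.72 FPKM for Foxo4, 1.37 to 2.22 FPKM for Foxo1 and 1.05 to 2.11 FPKM for Foxo3. In replicate 3 the bounds of Foxo4 (2.68 to 4.61 FPKM) lay above those of Foxo1 and Foxo3.

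The sum of the 3 members was 5.73, 5.49 and 5.93 FPKM in Foxo1-deficient cells, against 15.4, 22.9 and 25.1 FPKM in LZ and 26.4, 21.7 and 21.8 FPKM in DZ. The 3 Foxo1-deficient sums lie close together and below every wild-type sum. The sum of Foxo3 and Foxo4 was 2.72, 3.71 and 5.13 FPKM in Foxo1-deficient cells, against 0.602, 4.18 and 2.97 FPKM in LZ and 1.89, 2.19 and 2.70 FPKM in DZ. The paralog sum overlaps between Foxo1-deficient and LZ cells. All 3 Foxo1-deficient sums were above those of DZ, though the nearest values, 2.72 and 2.70 FPKM, were all but equal.

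In means over libraries the paralog sum was 3.85 ± 1.21 FPKM in Foxo1-deficient cells (SD, n = 3) and 2.42 ± 1.19 FPKM in wild-type cells (SD, n = 6), a difference of 1.43 FPKM. The difference in Foxo1 over the same libraries was -17.9 FPKM. With a library left out, the paralog difference ran from 0.788 FPKM (without Foxo1-deficient replicate 3) to 1.99 FPKM (without Foxo1-deficient replicate 1). Without LZ replicate 1, where Foxo3 is listed at 0, it was 1.06 FPKM. The sum of all 3 averaged 5.72 ± 0.221 FPKM in Foxo1-deficient cells and 22.2 ± 3.83 FPKM in wild-type cells. The paralogs' difference was therefore small beside the loss of Foxo1, and whether it is a response to that loss was not tested.

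**Figure D3:**
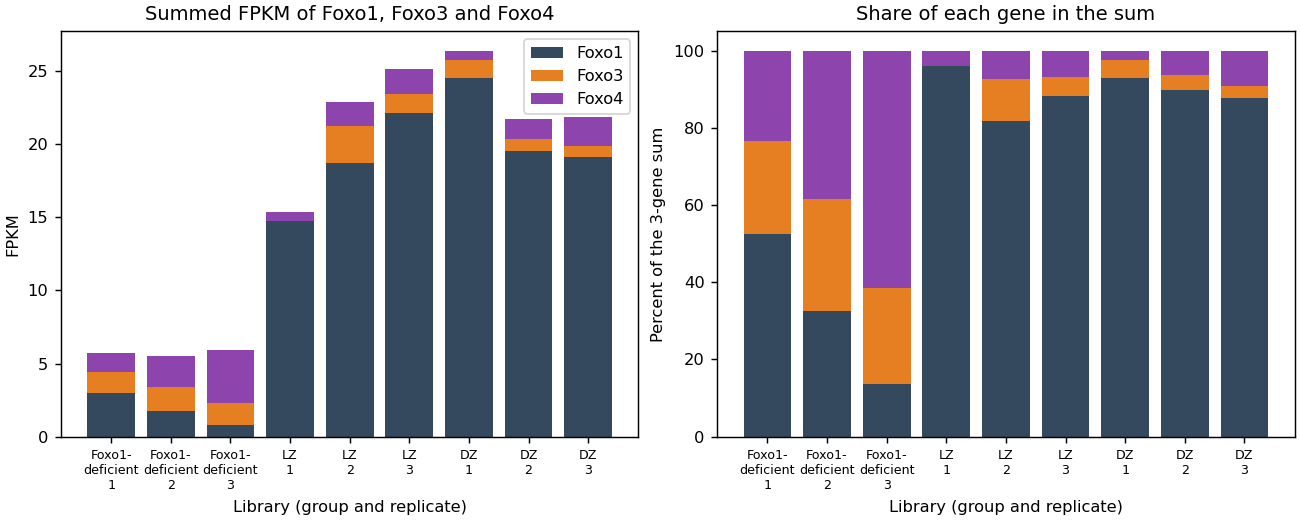
Summed FPKM of Foxo1, Foxo3 and Foxo4 (left) and the percent of that sum from each gene (right), by library, with Foxo1-deficient libraries left of LZ and DZ. The summed level is 5.49 to 5.93 FPKM in Foxo1-deficient cells and 15.4 to 26.4 FPKM in wild-type cells, and the Foxo1 share falls to 13.6% in Foxo1-deficient replicate 3.

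Among the other forkhead genes, Foxp1, a factor needed for early B cell development in mouse, was the only one to pass the test. It was 6.81, 2.65 and 3.88 FPKM in Foxo1-deficient cells, against 15.7, 12.7 and 10.8 FPKM in LZ and 23.6, 18.1 and 19.7 FPKM in DZ. Every Foxo1-deficient library was below every LZ library, and every LZ library was below every DZ library. Foxp1 fell by 2.04 on the log2(FPKM + 1) scale against DZ (SE 0.29, adjusted p = 0.00399 in limma), by 1.43 against LZ (SE 0.29, adjusted p = 0.0373) and by 1.73 against the midpoint (SE 0.25, adjusted p = 0.00525). The call against LZ was lost in 8 of 9 fits with a library left out, all but that without Foxo1-deficient replicate 1 (adjusted p from 0.0209 to 0.141), and under 3 of 7 other settings. The calls against DZ and the midpoint held in all 9. The DZ minus LZ difference of Foxp1 was 0.62 (SE 0.29, adjusted p = 0.340).

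Of 40 other forkhead genes in the tables, 10 could be tested, with a median change of 0.01 against LZ and 0.21 against DZ, beside -0.02 and 0.12 over all tested genes. The 9 besides Foxp1 were not called in any of the 4 comparisons. Over all tested genes 0.87%, 0.75% and 0.8% were called lower against LZ, DZ and the midpoint in limma. At an unadjusted p under 0.05 there were 2, 2 and 3 of the 10 in the same order, beside 13.4%, 16.3% and 14.7% of all tested genes. Foxm1, a forkhead factor of dividing cells, was 11.5, 15.2 and 10.4 FPKM in Foxo1-deficient cells, against 12.1, 14.9 and 9.69 FPKM in LZ and 18.2, 16.4 and 11.6 FPKM in DZ. All 3 groups overlap for Foxm1 (0.01 against LZ, -0.29 against DZ).

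**Figure D4:**
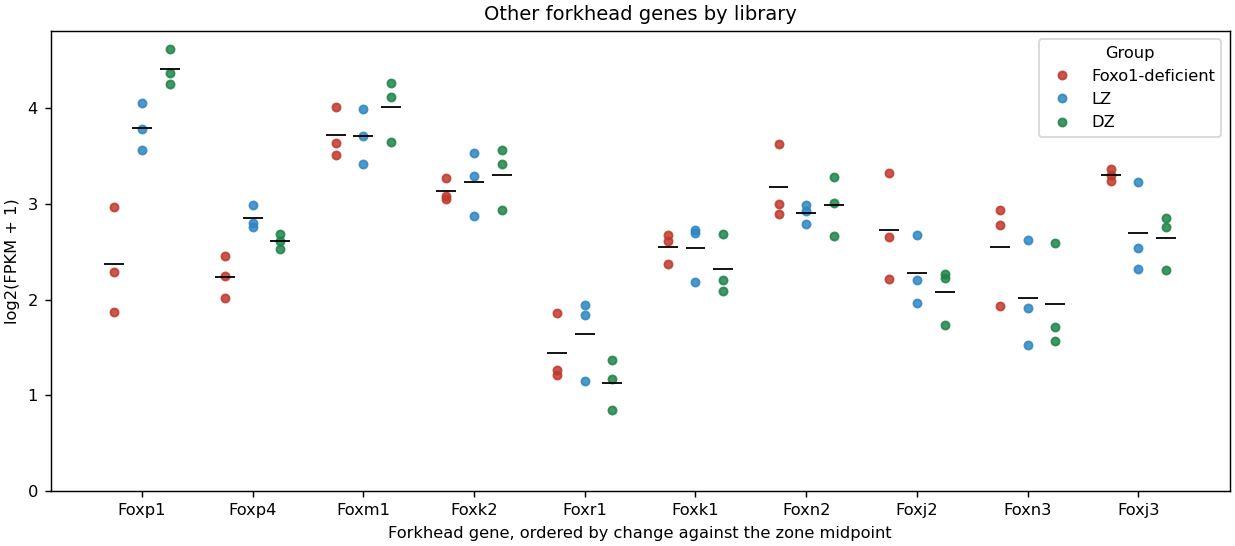
log2(FPKM + 1) of the 10 tested forkhead genes outside the Foxo family; points are libraries, black lines group means (n = 3 each), and genes run from the lowest to the highest change against the zone midpoint. Foxp1 stands at the left, where its 3 Foxo1-deficient libraries (2.65 to 6.81 FPKM) lie below all LZ and DZ libraries (10.8 to 23.6 FPKM).

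The PI3K and Akt arm sets where Foxo proteins sit in the cell. Of 26 listed genes 24 could be tested, and 2 rose in Foxo1-deficient cells against DZ in limma while 0 fell. Over all tested genes 2.1% rose and 0.75% fell in that comparison. At an unadjusted p under 0.05 there were 6 of the 24 against DZ, beside 16.3% of all tested genes. Inpp5d encodes the phosphatase SHIP1, which removes the PI3K product, and was 52.6, 59.2 and 47.7 FPKM in Foxo1-deficient cells, against 36.0, 41.1 and 39.3 FPKM in LZ and 28.8, 35.9 and 24.3 FPKM in DZ. It was higher in all Foxo1-deficient libraries than in any other, by 0.83 against DZ (SE 0.18, adjusted p = 0.0297 in limma) and 0.44 against LZ (adjusted p = 0.296). Pik3ap1 encodes BCAP, an adaptor that recruits PI3K to the antigen receptor, and was 86.6, 73.3 and 70.6 FPKM in Foxo1-deficient cells, against 56.6, 66.3 and 67.6 FPKM in LZ and 49.0, 49.7 and 38.1 FPKM in DZ. It too was highest in the Foxo1-deficient libraries, by 0.74 against DZ (SE 0.16, adjusted p = 0.0336 in limma) and 0.27 against LZ (adjusted p = 0.505). Inpp5d lost its call without any 1 of the 3 Foxo1-deficient libraries or DZ replicates 1 or 3 (adjusted p up to 0.117), and its change was 0.40 by voom (adjusted p = 0.369). Pik3ap1 lost its call in 8 of 9 such fits, all but that without LZ replicate 1 (adjusted p up to 0.125), and by voom (adjusted p = 0.244). With only the compared groups in the limma fit, Inpp5d (adjusted p = 0.0645) and Pik3ap1 (adjusted p = 0.0661) also lost their calls. Both genes are known from myeloid cells as well, whose markers were higher in the same libraries, and the part of those cells was not tested.

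Against LZ and against the midpoint, 0 of the 24 were called by limma or by voom, with 5 at an unadjusted p under 0.05 in each; such p-values came to 13.4% of all tested genes against LZ, 16.3% against DZ and 14.7% against the midpoint. The median change of the 24 was 0.15 against LZ, 0.23 against DZ and 0.14 against the midpoint, beside 0.06 over all tested genes against the midpoint.

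The kinase Akt1 was 42.8, 35.2 and 46.3 FPKM in Foxo1-deficient cells, against 34.6, 39.3 and 44.4 FPKM in LZ and 74.2, 74.5 and 48.8 FPKM in DZ. Foxo1-deficient and LZ cells overlap, and every DZ library was higher than both (-0.64 for Foxo1-deficient against DZ, adjusted p = 0.131). Akt2 overlapped across all groups, at 15.6 ± 2.18 FPKM in Foxo1-deficient cells, 13.1 ± 1.87 FPKM in LZ and 12.8 ± 3.87 FPKM in DZ (SD, n = 3 each).

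Sgk1, an Akt-related kinase that also phosphorylates Foxo proteins, was 1.44, 1.23 and 1.80 FPKM in Foxo1-deficient cells, against 0, 0 and 0.374 FPKM in LZ and 0.526, 0 and 0.461 FPKM in DZ. The Foxo1-deficient libraries were above all 6 wild-type libraries, whose zones overlap. Sgk1 entered the test only through the Foxo1-deficient group, and the difference of 1.04 from the midpoint did not pass (SE 0.29, adjusted p = 0.106). Pik3ip1, a PI3K inhibitor, was listed at 0 in all 3 Foxo1-deficient libraries and at no more than 0.230 FPKM elsewhere.

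The other proteins that act on Foxo factors gave no call, where 1.56% to 2.85% of all tested genes were called, so that few or none would be called among so few genes at the rate of all genes. Of 14 other kinases 13 could be tested and 0 passed in limma in any comparison; at an unadjusted p under 0.05 there were 3 against LZ, 0 against DZ, 1 against the midpoint and 2 between the zones, and voom called 1, between the zones. Unadjusted p-values under 0.05 came to 13.4%, 16.3%, 14.7% and 15.4% of all tested genes in that order. Of 24 genes of binding, export, turnover and acetylation 23 could be tested and 0 passed, with 2, 3, 2 and 0 at an unadjusted p under 0.05 in the same order and 1 call by voom, against DZ. Their median changes against the midpoint were 0.03 and -0.0036. The exportin Xpo1 was 45.5, 47.4 and 43.8 FPKM in Foxo1-deficient cells, against 44.8, 54.2 and 39.6 FPKM in LZ and 38.3, 36.3 and 39.9 FPKM in DZ. Foxo1-deficient cells were inside the LZ range and above DZ for Xpo1 (0.25, adjusted p = 0.472).

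General Foxo target genes, known from several tissues, gave as few calls as the rate over all genes would give. Of 18 listed genes 15 could be tested, 0 passed in limma or voom in any of the 3 comparisons of Foxo1-deficient cells, beside 1.56%, 2.85% and 2.06% of all tested genes in limma. At an unadjusted p under 0.05 there were 1, 3 and 2 against LZ, DZ and the midpoint, beside 13.4%, 16.3% and 14.7% of all tested genes. Their median change was 0.32 against LZ, 0.04 against DZ and 0.08 against the midpoint. Trp53inp1, a stress gene of autophagy and cell death, was the only call between the zones, at 24.7, 22.9 and 22.5 FPKM in DZ and 9.52, 14.8 and 11.6 FPKM in LZ. It rose by 0.93 in DZ (SE 0.20, adjusted p = 0.0433), and 7 of 9 fits with a library left out lost the call, all but those without Foxo1-deficient replicate 3 or LZ replicate 2 (adjusted p up to 0.149). Its Foxo1-deficient values of 16.5, 14.9 and 14.0 FPKM were below all DZ values (-0.59, adjusted p = 0.162).

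The genes whose profile over the 9 libraries lay closest to that of Foxo1, by root mean square difference of centred log2(FPKM + 1) values, were A130040M12Rik (0.50), Krt222 (0.53), BC024582 (0.56), Gstt1 (0.61) and Tmem106c (0.66), where the median over tested genes was 1.48. The nearest, A130040M12Rik, was 106, 45.9 and 71.7 FPKM in Foxo1-deficient cells, against 277, 291 and 255 FPKM in LZ and 555, 467 and 431 FPKM in DZ. It shares the low Foxo1-deficient level but, unlike Foxo1, has all 3 DZ libraries above all LZ libraries. Krt222 and Foxp1 have the same order of groups. Closest to Foxo3 were BC017647 (0.15), Ube3c (0.17) and Cep192 (0.19), and among the closest to Foxo4 were Sox5 (0.18) and Ckap2 (0.20), where the medians were 0.58 and 0.60. The 9 libraries share their groups, so these distances are descriptions.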

How the data were processed

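FPKM values and their 95% bounds per gene were deposited by the authors as 1 table for each of 9 libraries; alignment with TopHat2 2.0.8 to mm9 and estimation with Cufflinks 2.1.1 are per the submitters' processing notes. Libraries were made from total RNA with a NEBNext Ultra kit, per the labels' protocols. Read depth is unknown; fragments per gene were approximated from the width of the bounds, which covers counting error and reads as too few at high levels.

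Of 23700 entries, 716 of 250 repeated symbols and 7 genes with a failed or capped estimate were left out. The 10004 genes that reached 1 FPKM in 3 or more of the 9 libraries were tested with limma 3.58.1 (R 4.3.3) on log2(FPKM + 1), with an intensity trend, all groups in 1 fit, no replicate block and Benjamini-Hochberg adjustment per comparison at 0.05, two-sided. All 3 members passed this filter and Foxo6 did not. The fit was tested on simulated data, with changes set only in genes of higher mean level than Foxo3 and Foxo4. That test therefore cannot tell how well changes at the level of these paralogs are detected. Permutation tests were exact and two-sided. The planned tests on summed FPKM are not reported, because the members and gene lists were chosen with earlier results of these data known.

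Named genes were the members, Foxo6, every called gene of the pathway and forkhead lists up to 8 a list, genes named whatever their values (Akt1, Akt2, Pik3ip1, Sgk1, Xpo1, Foxp1, Foxm1), and the 5 or 3 nearest profiles; some items that this rule names are not reported here. Alternatives were a pseudocount of 0.1, no filter, quantile normalization, median centring, only the compared groups, a replicate block, voom on implied fragments and leaving out each library. Markers of plasma cells summed to 233 to 355 FPKM in Foxo1-deficient cells, 127 to 151 FPKM in LZ and 189 to 291 FPKM in DZ, and markers of stromal and follicular dendritic cells to 4.30 to 15.2, 0.0543 to 0.787 and 1.50 to 2.58 FPKM. Promoter windows are RefSeq's. No mm9 genome or protein table was used here.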

Additional observations from a re-analysis of the deposited data

How the results depend on the processing

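The fall of Foxo1 passed in all fits of its 3 comparisons: from -2.53 to -3.39 against LZ, with the highest adjusted p 0.0126, from -2.71 to -3.59 against DZ and from -2.62 to -3.49 against the midpoint. Foxo3 and Foxo4 passed in none. Leaving out single libraries gave Foxo3 -0.19 to 0.72 against LZ, reversed without LZ replicate 1, and -0.58 to 0.33 in DZ minus LZ. Foxo4 ran from -0.23 to 0.24 in DZ minus LZ. Foxo3 against LZ was 1.15 with the pseudocount 0.1 (adjusted p = 0.686 in limma) and 1.89 with voom (adjusted p = 0.601). The listed 0 of LZ replicate 1 enters those 2 values as well. Foxo3 in DZ minus LZ also turned to 0.48 with the pseudocount 0.1, 0.087 with quantile normalization, 0.12 with median centring and 1.68 with voom; the listed 0 of LZ replicate 1 enters these values, and their cause was not tested.

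The number of genes called against LZ, 156, was 99 with the pseudocount 0.1, 69 with only the compared groups, 45 with voom and 41 to 141 with a library left out. Against DZ, 285 became 152 with voom and 119 to 245. Against the midpoint, 206 became 312 with quantile normalization, 314 with median centring, 123 with voom and 56 to 168. In DZ minus LZ, 194 became 109 with no filter, 125 with voom and 73 to 215. The split of higher and lower calls against DZ, 210 and 75, became 219 and 141 with quantile normalization, 181 and 225 with median centring and 45 and 107 with voom. In DZ minus LZ, 56 and 138 became 89 and 119, 133 and 101, and 96 and 29. Against the midpoint, 126 and 80 became 178 and 134, 137 and 177, and 68 and 55, and were 31 and 77 without Foxo1-deficient replicate 1. The mean difference of the 3-gene sum ran from -17.9 to -15.7 FPKM and that of the paralog sum from 0.788 to 1.99 FPKM with a library left out.

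Deviations from group means had correlations of -0.07 to 0.08 between same-numbered libraries and of -0.11 to 0.05 between differently numbered ones. The labels do not say what a replicate number shares. With 3 libraries in a group, these values cannot decide whether the numbers pair the libraries. With a replicate block, counts were 137, 221, 191 and 161 in the order above, the Foxo1 changes were unaltered (adjusted p = 0.00417, 0.00173 and 0.00117) and Foxo3 and Foxo4 stayed uncalled; Pik3ap1 against DZ (adjusted p = 0.0532) and Trp53inp1 in DZ minus LZ (0.0738) lost their calls. At the level of Foxo3 and Foxo4, 15.6 to 56.9 implied fragments behind each nonzero value limit what could be detected.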
